A study of Drosophila melanogaster with 12 samples.

Results

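Rab genes encode small GTPases of membrane traffic, and 25 genes with a symbol of the form Rab or RabX followed by a digit were followed here among 11982 named genes on the arrays. Of these, 22 encode Rab GTPases. The other 3 meet the naming rule but encode regulators of Rab3: the exchange factor Rab3-GEF, and Rab3GAP1 and Rab3-GAP, the subunits of its GTPase-activating protein. The reference gene table holds 36 genes that meet the rule. Of the 11 others, Rab1, Rab4, Rab5, Rab6, Rab7, Rab8 and Rab11 were not analysed here. Rab9D, Rab9Db, Rab9E and Rab9Fa were not analysed as single genes.

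Each sample was a pool of 115 neurons that had been sorted by their green fluorescence from at least 15 dissociated brains of adult Drosophila melanogaster. There were 3 arrays for each of 4 groups: dopaminergic neurons of mutants, dopaminergic neurons of controls, cholinergic neurons of mutants and cholinergic neurons of controls. The labels call the genotypes mutant and control, and the design text names parkin null animals. Parkin, a ubiquitin ligase, marks damaged mitochondria for removal, and people who lack it can develop early Parkinson's disease. The sources used here do not give the age of the flies, the allele, or the driver of the fluorescent protein that defined each sort.

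A Rab protein switches between a GDP-bound form held in the cytosol and a GTP-bound form on a particular membrane, where it recruits tethers, motors and fusion factors. Exchange factors (GEFs) load GTP, activating proteins (GAPs) speed its hydrolysis, and GDP dissociation inhibitor takes the inactive form off the membrane. In neurons, Rabs act in vesicle release at the terminal, in axonal transport, and in endosome and lysosome traffic. In mammals several of them are phosphorylated by LRRK2, a kinase mutated in Parkinson's disease.

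The neuronal gene nSyb, a vesicle SNARE, was at a log2 value of at least 10.65 on every array. The dopaminergic marker ple (tyrosine hydroxylase) measured 7.01, 10.94 and 4.36 in dopaminergic mutants and 10.39 to 10.57 in dopaminergic controls, against 3.64 to 3.78 in cholinergic mutants and 3.61 to 4.18 in cholinergic controls. The array labelled dopaminergic mutant replicate 3 thus went against its label for ple and stood apart in other ways. Its probe sets with a log2 value of 8 or more numbered 1627, while the other arrays had 2182 to 3307, and its neuronal gene elav was at 6.27, against at least 9.07 elsewhere. The cholinergic gene ChAT measured 11.72, 10.66 and 6.28 in dopaminergic mutants and 9.28 to 11.39 in dopaminergic controls, against 10.50 to 11.55 in cholinergic mutants and 9.72 to 11.21 in cholinergic controls. The other cholinergic gene, VAChT, measured 5.49, 8.16 and 4.87 in dopaminergic mutants and 6.01 to 9.74 in dopaminergic controls, against 9.71 to 10.88 in cholinergic mutants and 8.54 to 10.38 in cholinergic controls. Cholinergic transcripts were thus present in both sorts, and VAChT averaged less in the dopaminergic one. The dopaminergic gene Ddc measured 9.37 to 11.24 in cholinergic mutants and 8.65 to 9.81 in cholinergic controls, against 11.29 to 11.82 in dopaminergic controls. In the same order, Vmat measured 4.85 to 10.04, 7.79 to 10.06 and 12.72 to 12.82. DAT measured 3.86 to 6.95, 3.82 to 8.85 and 9.58 to 11.33. Dopaminergic mutants ranged from 6.32 to 11.37 for Ddc, 5.19 to 12.90 for Vmat and 5.54 to 11.48 for DAT. Some dopaminergic transcripts were thus also in the cholinergic sort. Results below are given with and without dopaminergic mutant replicate 3 where they rest on it.

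None of the 22 Rab genes analysed was steadily expressed by the rule used, a log2 value of at least 8 (called bright) on at least 11 of the 12 arrays. Of the 22 Rab genes, 0 met it, 15 were bright on some arrays and 7 on none, while 2.17% of all named genes were steadily expressed, 48.8% were bright on some arrays and 49.0% were never bright. The count remained 0 at thresholds of 7, 9 or the array's own 75th percentile, and without each array in turn. At 7, Rab26 fell narrowly short, with 6.9997 on dopaminergic mutant replicate 3 and 6.62 on cholinergic mutant replicate 3. Since probe sets differ in sensitivity, a value below 8 does not show that a gene is off, and levels of different genes are not compared here. In pooled neurons, fewer cells that carry a transcript and less of it per cell cannot be told apart.

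By a looser measure, at or above the median of the array on all 12 arrays, 4 Rab genes were steady in both neuron types: Rab14, Rab18, Rab26 and RabX1 (4 of 22, against 1921 of all 11982 named genes). The same 4 genes met it without dopaminergic mutant replicate 3. Rab26, a Rab linked to synaptic vesicles and their autophagy, measured 8.58, 7.19 and 6.9997 in dopaminergic mutants and 7.34, 9.16 and 7.91 in dopaminergic controls. In cholinergic neurons it measured 7.89, 8.50 and 6.62 in mutants and 7.48, 7.47 and 7.29 in controls. Rab18, which in mammals acts at the endoplasmic reticulum and lipid droplets, ranged from 6.05 to 9.29. RabX1 ranged from 6.46 to 9.10, with 6.61, 9.10 and 7.29 in dopaminergic mutants and 8.34, 6.60 and 7.06 in dopaminergic controls. Over the 12 arrays the SDs were 0.73 for Rab26, 0.87 for Rab18 and 0.84 for RabX1, and 1.65 for Rab14, which ranged from 6.52 to 10.91.

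Many of the other Rab genes were high on some arrays and low on others, also within a group. For 11 of the 22, at least 1 array was bright and at least 1 other was below its own median, against 37.7% of all named genes. Within groups the median standard deviation of a Rab gene was 1.10, against 0.87 over all named genes. Rab9, a late endosome Rab, was below the median on all 12 arrays (3.36 to 4.93). Rab27, Rab39, Rab21, Rab23, RabX2 and RabX5 were never bright either, with highest values of 7.99, 7.65, 7.29, 6.52, 6.68 and 6.55.

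**Figure D1:**
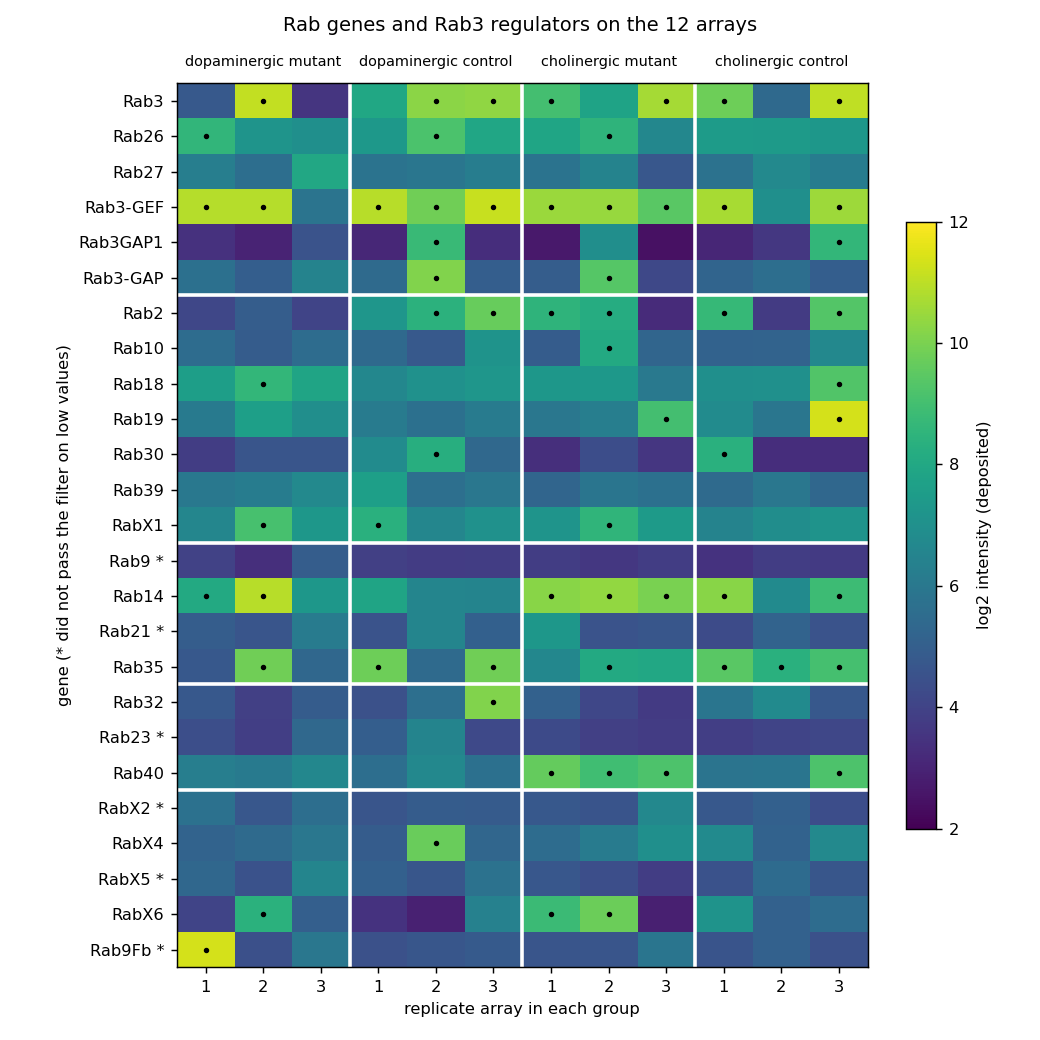
Deposited log2 intensity of the 22 Rab GTPase genes and 3 Rab3 regulators (rows, ordered by role) on the 12 arrays (columns, 3 per group); colours compare arrays within a row, a black dot marks a value of at least 8, and an asterisk marks the 6 genes that did not pass the filter on low values. No Rab GTPase row has dots on 11 arrays, and dopaminergic mutant replicate 3 has none.

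Between 0 and 8 Rab genes were bright on an array. The counts were 3, 6 and 0 in dopaminergic mutants and 2, 5 and 4 in dopaminergic controls. They were 5, 8 and 4 in cholinergic mutants and 5, 1 and 7 in cholinergic controls. The groups overlapped, and the arrays with the fewest were not all of the same group. The share of all named genes that were bright ran from 6.93% on dopaminergic mutant replicate 3 to 17.8% on cholinergic mutant replicate 3, with 11.3% on dopaminergic mutant replicate 1 and 11.9% on cholinergic control replicate 2. Of the Rab genes, 9 were bright at least once in both neuron types, 3 in dopaminergic neurons alone (Rab32, RabX4 and Rab9Fb) and 3 in cholinergic neurons alone (Rab10, Rab19 and Rab40). Among all named genes, 25.5% were bright in both types, 11.7% in dopaminergic neurons alone and 13.8% in cholinergic neurons alone, against 13.6% of the Rab genes in each single type. These counts are not a test of a difference between the types. Rab32, RabX4, Rab9Fb and Rab10 were each bright on 1 array, as were 19.6% of all named genes. RabX4 reached 9.71 on dopaminergic control replicate 2 and was at most 6.99 elsewhere. Rab9Fb reached 11.35 on dopaminergic mutant replicate 1 and was at most 5.95 elsewhere. Rab10, which acts in exocytosis and in mammals is a substrate of LRRK2, reached 8.09 on cholinergic mutant replicate 2.

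RabX6 spread widely in most groups. It measured 4.06, 8.37 and 5.03 in dopaminergic mutants, against 3.47, 2.92 and 6.40 in dopaminergic controls. In cholinergic neurons it measured 8.83, 9.75 and 2.88 in mutants, against 7.14, 5.12 and 5.53 in controls. Mutant arrays alone were bright, 3 of 6 against 0 of 6 control arrays, but mutants and controls overlapped in both neuron types.

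**Figure D2:**
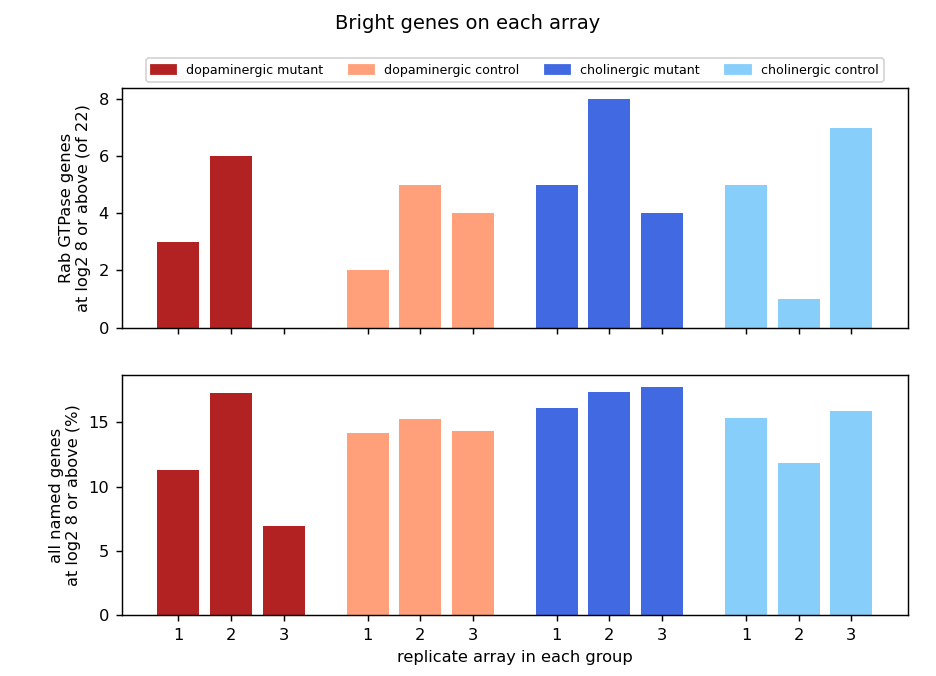
Number of the 22 Rab GTPase genes (upper bars) and percentage of all 11982 named genes (lower bars) at or above a log2 value of 8 on each array, coloured by group. Dopaminergic mutant replicate 3 has 0 bright Rab genes and the lowest share of all genes, 6.93%, and cholinergic control replicate 2 has 1 Rab gene at a share of 11.9%.

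Rab3, the Rab of synaptic vesicles, which in flies also organises active zones, was bright on 7 arrays. It measured 4.79, 11.08 and 3.54 in dopaminergic mutants, against 7.96, 10.28 and 10.35 in dopaminergic controls. In cholinergic neurons it measured 9.02, 7.80 and 10.65 in mutants and 9.80, 5.41 and 11.04 in controls. It was thus near or above 8 on 9 arrays, and low on dopaminergic mutant replicates 1 and 3 and cholinergic control replicate 2, the 3 arrays with the smallest shares of bright genes. The standard deviation within groups was 2.69, the highest among the Rab genes. In dopaminergic neurons the log2 difference was −3.06 ± 1.95 (SE, n = 3 per group; limma adjusted p = 0.935), and −1.59 without dopaminergic mutant replicate 3.

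Its regulators did not follow the same arrays throughout. Rab3-GEF, which loads GTP on Rab3, was bright on 10 arrays, the most of all 25 genes, and on 10 of 11 without dopaminergic mutant replicate 3. It measured 10.87, 10.87 and 5.86 in dopaminergic mutants, against 10.92, 9.82 and 11.16 in dopaminergic controls. The cholinergic values were 10.49, 10.45 and 9.44 in mutants, against 10.69, 6.97 and 10.55 in controls. On dopaminergic mutant replicate 1, Rab3-GEF was therefore at the level of the controls while Rab3 was not. Rab3GAP1 was bright on 2 arrays, dopaminergic control replicate 2 (8.77) and cholinergic control replicate 3 (8.62). Rab3-GAP was also bright on 2, dopaminergic control replicate 2 (10.11) and cholinergic mutant replicate 2 (9.38). The subunits of this GAP were thus bright together on 1 array.

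The comparisons of the 4 groups were fitted over 12460 probe sets that passed a filter on low values. Of the 25 genes, 19 passed (16 Rab GTPases and the 3 regulators), and Rab9, Rab9Fb, Rab21, Rab23, RabX2 and RabX5 did not. The filter does not use the group labels, but a gene bright in a single group can pass through that group alone. Rab30 and Rab32 reached the median on control arrays alone, so passing already favoured lower values in mutants for these genes. Each comparison shares arrays with others, so the results are not independent.

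The mutant effect in dopaminergic neurons asked whether Rab transcripts differ in the cells that degenerate in Parkinson's disease. None of the 16 Rab genes passed the threshold with limma (0 of 12460 probe sets did, 0%; adjusted p from 0.935 to 0.966 for the Rab genes). At an unadjusted p under 0.05 there was 1 of 16, against 4.49% of all probe sets. Measured values were higher in mutants for 7 and lower for 9, with a median log2 difference of −0.28, against 0.17 over the 7601 named genes tested. Without dopaminergic mutant replicate 3 the medians were −0.29 and −0.02.

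Rab2 had the smallest p. It acts between the endoplasmic reticulum and Golgi, and in fly neurons also in dense-core vesicle formation and the delivery of material to lysosomes. It measured 4.14, 4.94 and 4.03 in dopaminergic mutants, against 7.26, 8.43 and 9.68 in dopaminergic controls. All 3 mutant arrays lay below all 3 controls. The log2 difference was −4.08 ± 1.58 (SE; 95% interval −7.57 to −0.60; adjusted p = 0.935 with limma). It was −3.91 without dopaminergic mutant replicate 3 and between −4.68 and −3.47 with any array left out, and the adjusted p ran from 0.0818 to 1.00 over the alternatives. Without dopaminergic mutant replicate 3, no Rab gene had an unadjusted p under 0.05 here. The shares of all named genes that were bright were 11.3%, 17.3% and 6.93% in dopaminergic mutants, against 14.2%, 15.3% and 14.3% in dopaminergic controls, so replicates 1 and 3 of the mutants were lower and replicate 2 higher than the controls. The part of these shares in the Rab2 values was not tested. Between arrays whose title codes share a first letter, the values were 4.14 in the mutant and 8.43 in the control for D, and 4.94 in the mutant and 9.68 in the control for E.

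In cholinergic neurons Rab2 had no such split. It measured 8.52, 8.18 and 3.22 in mutants and 8.70, 3.72 and 9.32 in controls, so each group had 1 low array. The difference between the mutant effects of the neuron types was −3.47 ± 2.24 (SE; adjusted p = 0.773 with limma), and the interval from −8.40 to 1.45 covers 0. An unequal response of Rab2 in the neuron types was not shown.

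Rab30 and Rab18 were the other Rab genes whose dopaminergic mutants and controls did not overlap. Rab30, a Golgi Rab, measured 3.81, 4.62 and 4.65 in mutants, against 6.83, 8.25 and 5.39 in controls (log2 difference −2.46 ± 1.25, SE; adjusted p = 0.935 with limma). Rab18 measured 7.62, 8.63 and 7.83 in mutants, against 6.61, 7.07 and 7.26 in controls (1.05 ± 0.71). Thus 3 of 16 Rab genes separated the groups, 1 higher and 2 lower in mutants, against 9% of all probe sets in either direction (6.1% higher and 2.9% lower). Of the 2 lower, Rab30 passed the filter through control arrays alone. Without dopaminergic mutant replicate 3 the differences were −2.61 for Rab30 and 1.14 for Rab18. In cholinergic neurons Rab30 was at 3.36, 4.36 and 3.57 in mutants and at 8.35, 3.31 and 3.32 in controls, so a single control array was bright there.

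Rab32 and Rab14 completed the 4 smallest p in dopaminergic neurons. Rab32, known in the fly as lightoid for its role in eye pigment granules, measured 4.75, 3.90 and 4.90 in mutants, against 4.46, 5.64 and 10.09 in controls. Its difference of −2.21 ± 1.20 (SE) came to −0.53 without dopaminergic control replicate 3, the only bright array. Rab32 passed the filter through control arrays alone. Rab14, which acts on endosomes and in phagosome maturation, measured 8.08, 10.91 and 7.27 in mutants, against 7.82, 6.56 and 6.52 in controls (1.78 ± 1.09). This difference was 0.71 without dopaminergic mutant replicate 2, its highest array, and 2.53 without replicate 3. The groups overlapped for both genes.

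Rab35, a Rab of recycling endosomes and actin, showed how wide the spread was. It measured 4.75, 9.82 and 5.35 in dopaminergic mutants, against 9.78, 5.47 and 9.83 in dopaminergic controls, so each group held both high and low arrays. The difference was −1.72 ± 1.43 (SE), and −1.08 without dopaminergic mutant replicate 3, −0.78 without replicate 1 and −3.31 without replicate 2. Over the 16 Rab genes the SE of this comparison ran from 0.52 to 1.95, so only large changes could have passed.

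**Figure D3:**
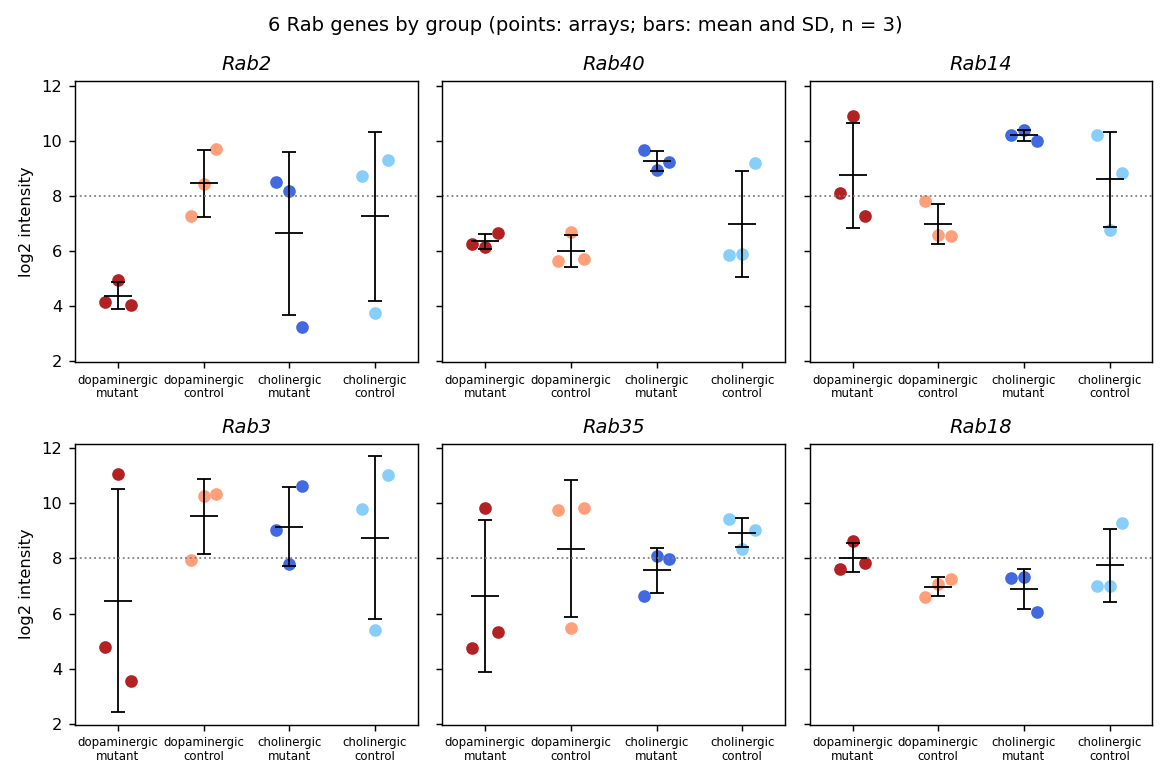
Log2 intensity of 6 Rab genes on each array (points), with the mean and SD of each group (black, n = 3), the dotted line marking the value of 8; groups run from dopaminergic mutants to cholinergic controls. Rab2 is below 5 on all 3 dopaminergic mutant arrays and above 7 on all 3 dopaminergic controls, and Rab40 is above 8.9 on all 3 cholinergic mutants and below 6.7 on all 6 dopaminergic arrays.

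Parkin mutants and controls were also compared in cholinergic neurons. There 6 of 12460 probe sets passed (0.0482%), and none of the 16 Rab genes was among them (adjusted p from 0.939 to 0.999 with limma). At an unadjusted p under 0.05 there was 1 of 16, against 4.57% of all probe sets. The values were higher in mutants for 9 and lower for 7, and the median was 0.01, against −0.11 over the named genes tested.

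Rab40 had the smallest p here. In vertebrates Rab40 proteins carry a SOCS box and serve in ubiquitin ligase complexes. It measured 9.65, 8.92 and 9.22 in cholinergic mutants, against 5.86, 5.87 and 9.20 in cholinergic controls. All 3 mutant arrays were bright, while 1 control array was as bright and the other 2 were not. The log2 difference was 2.28 ± 0.82 (SE; 95% interval 0.48 to 4.08; adjusted p = 0.939 with limma), and it ran from 1.72 to 3.39 with single arrays left out. The upper value was reached without cholinergic control replicate 3, its bright control array, and did not pass (adjusted p = 0.0763, the lowest of all alternatives, which ran up to 1.00).

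Among glial markers, nrv2 ran with Rab40 in part. It measured 8.09, 9.31 and 8.14 in cholinergic mutants and 6.96, 7.26 and 9.39 in cholinergic controls, while dopaminergic mutant replicate 1 had nrv2 at 9.64 and Rab40 at 6.26. The defining glial gene repo was not bright on any array, with its highest value, 7.39, on dopaminergic mutant replicate 2. It measured 2.95, 5.73 and 3.09 in cholinergic mutants, against 2.74, 2.85 and 3.08 in cholinergic controls. The astrocyte gene alrm measured 4.26, 3.98 and 7.52 in cholinergic mutants, against 8.42, 4.80 and 4.51 in cholinergic controls. The mean of the 3 markers ran from 5.10 to 6.34 in cholinergic mutants and from 4.97 to 6.04 in cholinergic controls. The part of glial RNA in the Rab40 values was not tested.

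RabX1 and Rab35 separated cholinergic mutants from controls (1 of 16 higher, against 3.67% of all probe sets, and 1 lower, against 8.26%, with 11.9% in either direction). RabX1 measured 7.19, 8.56 and 7.45 in mutants, against 6.46, 6.91 and 7.15 in controls (0.89 ± 0.75, SE). Rab35 measured 6.62, 8.09 and 7.98 in mutants, against 9.43, 8.36 and 9.04 in controls (−1.38 ± 1.43). Neither gene passed. Rab32, which passed the filter through control arrays alone, was lower on average. It measured 5.10, 4.14 and 3.71 in mutants, against 5.90, 6.77 and 4.74 in controls (−1.48 ± 1.20). For Rab18 the difference was −0.88 ± 0.71, with values of 7.29, 7.32 and 6.05 in mutants and 6.98, 7.01 and 9.29 in controls, and −0.11 without cholinergic control replicate 3. Rab14, next to Rab40 in p, was steady at 10.21, 10.39 and 9.97 in cholinergic mutants, against 10.20, 6.77 and 8.84 in controls (1.59 ± 1.09, and 0.67 without cholinergic control replicate 2).

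**Figure D4:**
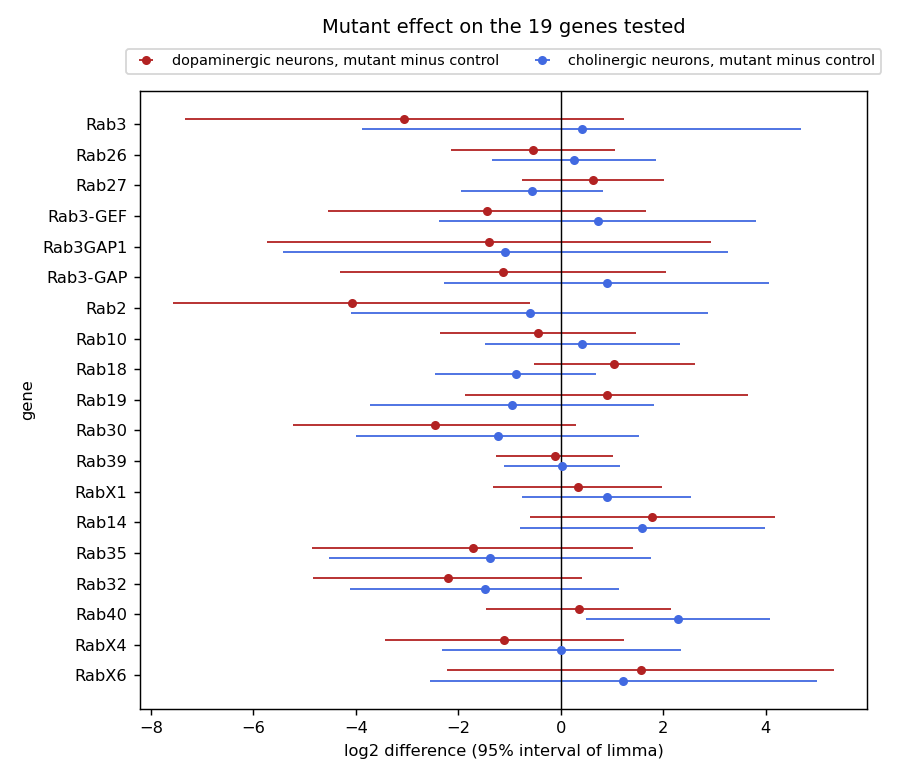
Log2 difference between mutants and controls with its 95% interval from limma (horizontal lines) for the 19 genes tested, in dopaminergic (red) and cholinergic (blue) neurons. The intervals of Rab2 in dopaminergic neurons (−7.57 to −0.60) and Rab40 in cholinergic neurons (0.48 to 4.08) do not cover 0, without correction for the number of probe sets tested.

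The difference of the mutant effects between neuron types was tested directly. No Rab gene passed with limma (0 of 12460 probe sets, 0%; 0 of 16 at an unadjusted p under 0.05, against 5.18%). The smallest p was that of Rab18, whose effect differed by 1.92 ± 1.01 (SE) between dopaminergic and cholinergic neurons (adjusted p = 0.773), and by 1.16 without cholinergic control replicate 3. For Rab40 the difference was −1.94 ± 1.16, and −3.05 without cholinergic control replicate 3. Rab27, a Rab of regulated secretion, measured 6.27, 5.60 and 7.99 in dopaminergic mutants and 5.79, 5.92 and 6.25 in dopaminergic controls. In cholinergic neurons Rab27 measured 5.83, 6.45 and 4.72 in mutants and 5.76, 6.73 and 6.21 in controls. Its effects differed by 1.20 ± 0.89, and by 0.51 without dopaminergic mutant replicate 3, its highest array. Averaged over both neuron types, no Rab gene passed between mutants and controls with limma either (0 of 12460 probe sets, 0%; adjusted p = 1.00 for all 16 after rounding; 1 of 16 at an unadjusted p under 0.05, against 3.73%). Rab40 (1.31 ± 0.58) and Rab14 (1.69 ± 0.77) were measured higher in mutants, and Rab32 (−1.85 ± 0.85) and Rab2 (−2.35, interval −4.81 to 0.12) lower. Of these, Rab32 had passed the filter through control arrays alone.

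Control animals were used to ask which Rab genes distinguish dopaminergic from cholinergic neurons without the mutation. None of the 16 passed with limma (0 of 12460 probe sets, 0%; 0 of 16 at an unadjusted p under 0.05, against 3.63%), and none separated the groups, against 8.49% of all probe sets (4.96% higher and 3.53% lower). The smallest p belonged to Rab39, a Rab of Golgi and endolysosomal traffic (0.83 ± 0.52, SE; adjusted p = 1.00). Rab39 measured 7.65, 5.64 and 5.98 in dopaminergic controls, against 5.44, 5.96 and 5.36 in cholinergic controls, and the difference was 0.22 without dopaminergic control replicate 1. Rab19 measured 6.17, 5.71 and 6.15 in dopaminergic controls, against 6.82, 5.91 and 11.36 in cholinergic controls. It differed by −2.03 ± 1.26, and by −0.36 without cholinergic control replicate 3. Rab14 differed by −1.63 ± 1.09 (−0.83 without cholinergic control replicate 1) and Rab30 by 1.83 ± 1.25 (0.99 without replicate 2 and 3.51 without replicate 1 of the same group).

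Rab40 had the smallest p of all Rab genes and comparisons in the mutants of both neuron types. It measured 6.26, 6.13 and 6.63 in dopaminergic mutants, against 9.65, 8.92 and 9.22 in cholinergic mutants. The groups did not overlap, with SDs of 0.26 in dopaminergic mutants and 0.36 in cholinergic mutants (n = 3 each). The log2 difference was −2.92 ± 0.82 (SE; 95% interval −4.72 to −1.12; adjusted p = 0.439 with limma). It did not pass. In this comparison 2 of 12460 probe sets did (0.0161%), and 10.5% had an unadjusted p under 0.05, as did 1 of 16 Rab genes. It was −3.07 without dopaminergic mutant replicate 3, and of all alternatives it passed with array weights alone (−3.01; adjusted p = 0.0483, in a range from there to 0.630), where dopaminergic mutant replicate 1 had a weight of 4.56, against 0.28 and 0.41 for replicates 2 and 3. Over both genotypes Rab40 differed by −1.95 ± 0.58 between dopaminergic and cholinergic neurons (adjusted p = 0.661 with limma). In controls alone the difference was −0.99 ± 0.82, with values of 5.62, 6.68 and 5.69 in dopaminergic controls, against 5.86, 5.87 and 9.20 in cholinergic controls. Rab40 was thus bright on 4 of 6 cholinergic and 0 of 6 dopaminergic arrays.

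Rab18 and Rab39 also separated the mutants of the neuron types, both higher in dopaminergic mutants (2 of 16 higher, against 9.22% of all probe sets, and with Rab40 1 lower, against 4.57%, or 13.8% in either direction). The differences were 1.14 ± 0.71 (SE) for Rab18 and 0.70 ± 0.52 for Rab39, which measured 6.0, 6.19 and 6.71 in dopaminergic mutants, against 5.26, 5.87 and 5.68 in cholinergic mutants. Rab2 differed by −2.27 ± 1.58 and Rab27 by 0.95 ± 0.63, with overlap. Without dopaminergic mutant replicate 3 the differences were 1.24 for Rab18, 0.49 for Rab39, −2.10 for Rab2 and 0.27 for Rab27. The Rab2 difference was −3.98 without cholinergic mutant replicate 3 and −1.33 without replicate 1 of that group. Over both genotypes, no Rab gene passed between dopaminergic and cholinergic neurons (0 of 12460 probe sets, 0%; 1 of 16 at an unadjusted p under 0.05, against 6.61%). After Rab40 the smallest p were those of Rab39 (0.76 ± 0.37), Rab14 (−1.54 ± 0.77) and Rab30 (1.21 ± 0.89). Rab14 was bright on 2 of 6 dopaminergic arrays and 5 of 6 cholinergic arrays. In the F test over the 4 groups, 3 of 12460 probe sets passed (0.0241%) and no Rab gene did, with adjusted p of 0.725 for Rab40 and 0.837 for Rab14 (1 of 16 at an unadjusted p under 0.05, against 5.32%).

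The proteins that control Rabs were described from lists of other genes. Of the genes for Rab escort, prenylation and recycling 8 had a named probe set, of exchange factors 19, of GAPs 17 and of effectors 34, leaving out the 3 Rab3 regulators. None of them was bright on 11 arrays, against 2.17% of all named genes. The filter kept 3, 15, 16 and 28 of the lists in that order, and none of these genes passed in any comparison with limma as fitted here. Alternatives were recomputed only for the gene of each list with the smallest p in each comparison. Of these, 4 passed with array weights, each in 1 of the comparisons recomputed for it. Between dopaminergic mutants and controls these were CG8155 (−4.60; adjusted p = 0.0209) and Mon1 (3.30; adjusted p = 0.0250), and between the mutants Evi5 and lt. CG8155 measured 3.91, 8.60 and 3.75 in dopaminergic mutants, against 8.53, 8.37 and 9.27 in dopaminergic controls. The weights of these mutant arrays were 4.56, 0.28 and 0.41. Without dopaminergic mutant replicate 3 and without weights, the CG8155 difference was −2.47. Other genes and comparisons of the lists were not examined with array weights. Over all alternatives the adjusted p ran up to 1.00 for CG8155 and Mon1. In dopaminergic mutants the median differences were 0.52 for 3 escort and recycling genes, 0.06 for 15 exchange factors, −0.39 for 16 GAPs and −0.18 for 28 effectors, against 0.17 over all named genes tested. Without dopaminergic mutant replicate 3 the median over all named genes tested was −0.02, and the list medians were not recomputed. In cholinergic mutants the medians were −1.02, 0.09, 0.41 and 0.03, against −0.11.

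Gdi, the GDP dissociation inhibitor that recycles Rabs, measured 9.59, 7.01 and 6.24 in dopaminergic mutants, against 8.93, 6.51 and 7.24 in dopaminergic controls. Its values in cholinergic neurons were 7.42, 9.36 and 7.95 in mutants, against 8.62, 8.35 and 10.81 in controls. It was bright on 6 arrays, 3 of them cholinergic controls. Evi5, a GAP of Rab11 in flies, was bright on 10 arrays, the most in these lists. It measured 5.08, 10.35 and 5.91 in dopaminergic mutants, against 10.25, 8.98 and 9.85 in dopaminergic controls, and was low on the same arrays as Rab3 there. In cholinergic neurons it was at 9.08, 10.57 and 10.83 in mutants and 11.55, 10.80 and 11.63 in controls. Dopaminergic and cholinergic mutants differed by −3.04 ± 1.22 (SE; adjusted p = 0.450 with limma). Evi5 passed with array weights (−4.53; adjusted p = 0.0221) and without dopaminergic mutant replicate 2 (−4.66; adjusted p = 0.0293), and was −2.44 without replicate 3, with an adjusted p of up to 0.861 over the alternatives.

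Trs31 and lt had the smallest adjusted p in these lists. Trs31, a subunit of the TRAPP complex that activates Rab1, measured 8.21, 9.07 and 9.13 in cholinergic mutants, against 5.91, 6.22 and 5.44 in cholinergic controls (2.95 ± 0.63, SE; adjusted p = 0.268 with limma). In dopaminergic neurons it measured 6.78, 7.84 and 6.83 in mutants and 7.90, 5.80 and 6.26 in controls. The gene lt (light) encodes Vps41 of the HOPS tethering complex, an effector of Rab7. It measured 5.35, 5.10 and 6.08 in dopaminergic mutants, against 11.45, 9.78 and 10.17 in cholinergic mutants (−4.96 ± 1.20; adjusted p = 0.353). Neither set of groups overlapped, and neither gene passed. With array weights lt did (−5.20; adjusted p = 0.0407, in a range up to 0.549 over the alternatives).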

How the data were processed

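The values were log2 intensities per probe set, 1 array per pool, as the authors deposited them. Per the labels' protocols, amplified cDNA carried a biotin label and went onto Affymetrix Drosophila 2.0 arrays. The authors' normalization and summary method is not given in the sources used here. The medians of the arrays lay between 5.59 and 6.30.

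Of 18952 probe sets, 183 controls were left out. The platform annotation gave 1 symbol to 13647 of the other 18769, several to 402 and none to 4720, and the 1-symbol probe sets stood for 11982 genes. For each gene the probe set with the highest mean over the 12 arrays was used. Member names were looked up in the RefSeq gene table of Release 6, which held all 25.

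A probe set was tested if its value reached the array's median on 3 or more arrays (12460). Differences were fitted with limma 3.58.1 in R 4.3.3 (lmFit, eBayes with a trend, 2-sided), with a coefficient for each group and all 12 arrays in the fit. The p-values were adjusted by Benjamini and Hochberg over all 12460, with a threshold of 0.05. A moderated F test covered all 4 groups. The test was tested on simulated data. Python 3.11.15, pandas 2.3.3 and matplotlib 3.10.9 drew the plots.

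Replicates were numbered in accession order. Nothing in the labels ties the pools to separate cohorts, and p-values therefore measure only the spread between these arrays, which may be technical. Every Rab gene could be named. Per-array values were to be given for the steadily expressed ones and the 4 with the smallest p per comparison. Rab genes without overlap between groups, together with Rab3, its regulators, Rab26, Rab35 and RabX6, were added after their values were seen. Of each regulator list, genes among the 3 with the smallest p in a comparison could be named. The members and lists were chosen with earlier results of these data known. Alternatives changed the normalization (quantile, or centring), the filter (none, or the 65th percentile), eBayes (robust, or with no trend), array weights, the arrays fitted (only those compared), the block (letter of the title code), the probe sets (mean per gene), the threshold (0.1), the brightness threshold, and left out each array.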

Additional observations from a re-analysis of the deposited data

Results flagged for a closer look

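Probe sets outside the main measurement gave 2 signals above the highest control array. A second probe set of Rab26, which has a lower mean than the one used, averaged 7.76 in dopaminergic mutants (10.17, 5.51 and 7.60), above all 6 control arrays (5.65 to 6.47). The difference from dopaminergic controls was 1.76 ± 0.88 (SE; adjusted p = 0.935 with limma), while the probe set used gave −0.55 ± 0.73, so the probe sets of this gene disagreed in sign.

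A probe set that the annotation pairs with several Rab symbols averaged 7.28 in cholinergic mutants (5.61, 7.93 and 8.30), against 4.70 to 5.47 in cholinergic controls, and was above all 6 control arrays in its mean. The difference was 2.09 ± 0.62 (SE; adjusted p = 0.768 with limma). It is not named for a gene.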

How the results depend on the processing

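The count of genes past the threshold was 0 of the 19 tested in every comparison and remained 0 under all alternatives but 1. With array weights it was 1 between dopaminergic and cholinergic mutants (Rab40). The count of steadily expressed Rab genes was 0 under every alternative, though Rab26 fell narrowly short at a brightness threshold of 7. No recomputed difference of a Rab gene changed sign, but 23 of 34 moved by over 1.5 times with 1 array left out. Among the other genes, the difference of the exchange factor gene Mon1 between dopaminergic mutants and controls (1.25) ran from −0.0295 to 1.96 with single arrays left out, the lowest without dopaminergic mutant replicate 1, the only array where it was bright (10.25), and was 3.30 with array weights (adjusted p = 0.0250), which gave that array a weight of 4.56. Rab32 and Rab39 did not pass the filter at the 65th percentile. The fit of the array weights stopped before full convergence. The labels carry no replicate numbers. The first letter of the title code, which arrays of several groups share, was fitted as a random block (correlation of 0.02), and the count was 0 in every comparison there too. The counts without dopaminergic mutant replicate 3 were chosen after seeing the data. Only 3 arrays per group limit the precision.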
